A study of Mus musculus with 6 samples.

Results

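The genes described here are the mouse collagen genes, taken as every protein-coding gene whose symbol is Col, a number, a and a number. The rule found 44 genes among the 35127 genes of the tables, with 219 transcripts. They were sorted into 4 classes: 11 fibrillar genes, 8 genes of basement membrane collagens (types IV, XV and XVIII), 9 genes of fibril-associated collagens with interrupted triple helices (FACIT), and 16 others, which include types VI, VII and VIII and the transmembrane collagens.

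Bulk RNA-seq was made of mouse astrocytes in 2 groups of 3 libraries. The tumour libraries hold astrocytes taken from brain allografts of small-cell lung cancer (SCLC), and the sham libraries hold astrocytes from brains that had a sham injection. Strain, age, sex, the tumour line, the time after injection and the way the astrocytes were purified are not stated in the labels. Nor do they say whether each library came from its own animals or culture, so a p-value covers the spread of these 6 libraries alone, and that spread may be technical.

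Collagens are proteins of 3 chains wound into a triple helix, secreted as procollagens or, in the transmembrane members, held at the cell surface. Fibrillar collagens are trimmed and cross-linked into fibrils, FACIT collagens sit on the fibril surface, and type IV collagen forms the network of basement membranes. In the brain, collagen is found mainly in the meninges and in the basement membranes of blood vessels and of the astrocyte endfeet around them, and fibroblast-like and mural cells are known sources of much of it.

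Library totals ran from 22133723 to 25800897 reads. The 3 tumour libraries lay close together, as did sham 1 and sham 2, with root mean square log2 differences of 0.32 to 0.35 over genes. Sham 3 stood apart: it differed from sham 1 and sham 2 by 0.80 on that measure, and each tumour library differed from each sham library by 0.73 to 0.75. Counts of the close pairs still differed by more than sampling noise (chi-square per degree of freedom 2.88 to 3.68), and every library was kept. Because sham 3 moved many collagen genes, the 3 sham values are shown apart for most collagens named. Where only a range or a fold change is given, it pools the 3 sham libraries. Of the 14359 genes tested by edgeR's quasi-likelihood test with Benjamini-Hochberg adjustment, 20.9% passed an adjusted p of 0.05, 10.5% higher and 10.4% lower in the tumour libraries.

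Collagen transcripts made up 1.5% to 1.53% of the reads of the tumour libraries, against 1.19% in sham 1, 1.20% in sham 2 and 2.09% in sham 3. In TPM, a transcript abundance scaled by length and by library total, which allows levels of different genes to be set side by side, the 44 genes summed to 3481 to 3488 in the tumour libraries and to 2570, 2696 and 4787 in sham 1, 2 and 3. The tumour libraries thus lay between the 2 close sham libraries and the third. Col6a1, a chain of type VI collagen, had the highest collagen level in the tumour libraries, with 672, 667 and 666 TPM, and 375, 394 and 690 TPM in sham 1, 2 and 3. Col1a2, one of the chains of type I collagen, had 621, 608 and 610 TPM in the tumour libraries and was the highest collagen in the sham libraries, with 520, 541 and 1019 TPM. Col4a1, a type IV chain, had a mean of 400 TPM over the 6 libraries. These 3 genes were among the 5 highest collagens in every library.

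Summed by class, the fibrillar genes reached 1147 to 1154 TPM in the tumour libraries and 1181, 1226 and 2041 TPM in sham 1, 2 and 3. The basement membrane genes summed to 814 to 823 TPM in the tumour libraries and to 500, 533 and 1215 TPM in the sham libraries. For the other collagens the sums were 1104 to 1111 TPM against 663, 697 and 1250 TPM. In those latter 2 classes the tumour sums lay above sham 1 and 2 and below sham 3. The FACIT genes alone among the classes had tumour sums, 403 to 414 TPM, above all 3 sham sums of 226, 240 and 280 TPM, and Col12a1 carried most of that level.

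**Figure D1:**
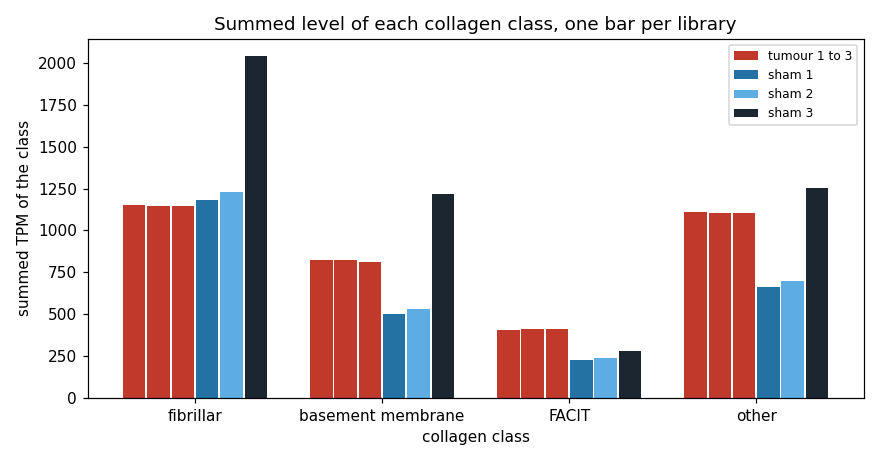
Summed TPM of each collagen class (vertical axis, from 0), with 1 bar for each of the 6 libraries. The 3 tumour bars are level with one another, at 1147 to 1154 TPM for fibrillar genes, while the sham 3 bar stands at 2041 TPM for fibrillar and 1215 TPM for basement membrane genes.

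Of the 44 genes, 37 had enough reads to be tested. The 7 that did not, Col19a1, Col10a1, Col13a1, Col17a1, Col28a1, Col6a4 and Col6a6, had 5 to 31 reads each over all 6 libraries and no more than 0.499 CPM, counts scaled to the library total, in any of them. Col10a1 marks hypertrophic cartilage and Col17a1 is an epithelial hemidesmosome collagen. Among the 37, 2 passed the test as higher in the tumour libraries and 4 as lower, which is 16.2% of the tested collagens and below the 20.9% of all genes. At an unadjusted p under 0.05 there were 9, of which 2 were higher and 7 lower, 24.3% of the collagens against 36.3% of all tested genes. The median log2 fold change, tumour over sham, was -0.15 over the 37 collagens and -0.02 over all tested genes. Split by sham library, the collagen median was 0.06 against sham 1 and 2 and -0.21 against sham 3.

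**Figure D2:**
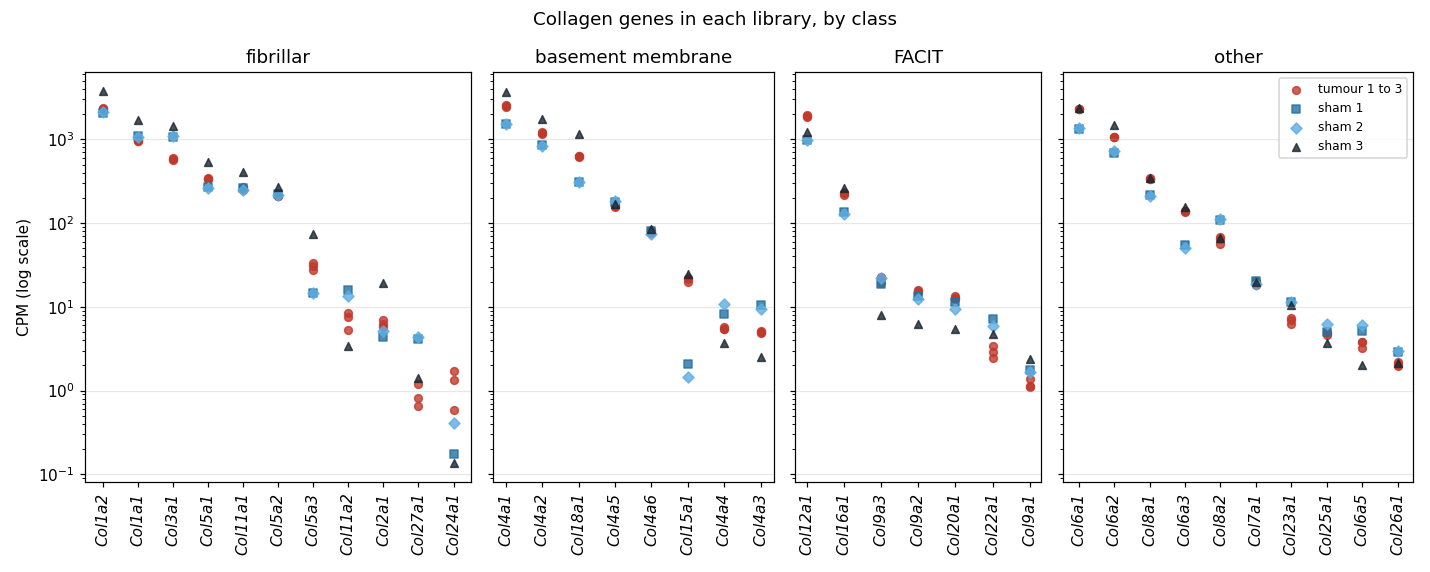
CPM (log scale) in each of the 6 libraries for the 36 collagen genes that passed the test or had a mean of at least 1 CPM, by class and in order of their mean. Red circles are tumour libraries, and sham 1, 2 and 3 have a square, a diamond and a triangle. The triangle of sham 3 is the topmost point for most of the abundant genes, among them Col1a2 at 3825 CPM.

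The fall with the most reads behind it was that of Col3a1, the chain of type III collagen, a fibrillar collagen found with type I in vessel walls and meninges. It had 568, 600 and 587 CPM in the tumour libraries and 1063, 1084 and 1427 CPM in sham 1, 2 and 3. Every tumour value lay below every sham value. The group means were 585 ± 16.0 and 1191 ± 205 CPM (SD, n = 3 each), and the tumour level was 2.04-fold lower (log2 fold change -1.03, SE 0.14, edgeR adjusted p = 0.00586). The difference was -0.87 on the log2 scale against sham 1 and 2 and -1.29 against sham 3, so both kinds of sham library showed it.

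Relative to the type I collagen it is found with, Col3a1 was also lower. Its TPM was 0.29 to 0.31 times that of Col1a2 in the tumour libraries and 0.59, 0.60 and 0.43 times in sham 1, 2 and 3. Col1a2 itself had 2312, 2345 and 2329 CPM against 2048, 2092 and 3825 CPM, between the 2 close sham libraries and the third. For Col1a1, the other type I chain, 966, 962 and 970 CPM in the tumour libraries lay below 1092, 1070 and 1717 CPM in the sham libraries, and the test was not passed (log2 fold change -0.42, SE 0.20, adjusted p = 0.187). The TPM ratio of Col1a2 to Col1a1 was 2.90 to 2.93 in the tumour libraries and 2.30, 2.37 and 2.75 in the sham libraries.

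A pair of scarce fibrillar genes moved in opposite directions. Col27a1, a fibrillar collagen known from cartilage, fell 3.72-fold: it had 0.828, 0.658 and 1.18 CPM in the tumour libraries and 4.18, 4.41 and 1.41 CPM in sham 1, 2 and 3 (log2 fold change -1.90, SE 0.50, adjusted p = 0.0401). Its sham 3 value was the one close to the tumour values. Col24a1, known from developing bone and cornea, rose from 0.176, 0.416 and 0.136 CPM in the sham libraries to 1.70, 1.36 and 0.592 CPM (log2 fold change 2.28, SE 0.60, adjusted p = 0.0409). These were 4, 10 and 3 reads against 41, 33 and 15, so the sham levels lay near the level of 3 reads, 0.125 to 0.136 CPM. Col24a1 reached the filter's limit of 0.418 CPM in all 3 tumour libraries but in only 1 sham library, and the filter asks for 3, so it was tested because of the group where it was high.

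The remaining 8 fibrillar genes did not pass the test, and most of them differed between sham 3 and the other sham libraries. Over the 11 fibrillar genes the median log2 difference was 0.04 against sham 1 and 2 and -0.65 against sham 3. Col5a1, a type V chain that regulates fibril diameter, had 334, 340 and 341 CPM against 269, 260 and 531 CPM. Its partner chain Col5a2 had 212, 215 and 208 CPM against 225, 214 and 272 CPM. Of these 8, Col5a3 had the widest log2 gap between sham 3 and the other sham libraries, with 30.6, 33.3 and 27.4 CPM in the tumour libraries and 14.8, 14.7 and 74.7 CPM in the sham libraries. Type XI collagen nucleates cartilage fibrils, and its Col11a1 chain had 249, 270 and 266 CPM against 261, 250 and 407 CPM. The cartilage genes Col2a1 and Col11a2 stayed below 20 CPM in every library. Sham 3 was at opposite ends of the range for them: it had the highest Col2a1 value, 19.0 CPM, and the lowest Col11a2 value, 3.40 CPM.

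None of the 8 basement membrane genes passed the edgeR test, against 20.9% of all genes. None had an unadjusted p under 0.05, against 36.3% of all genes. DESeq2 and limma-voom also called 0, where they called 27.3% and 21.6% of all genes, with 1 gene each at an unadjusted p under 0.05. DESeq2 gave no p-value for Col15a1. Yet in 6 of the 8 the 3 tumour values all lay between sham 1 and 2 on one side and sham 3 on the other. Of all tested genes, 18.3% did so. Col4a1 and Col4a2 encode the 2 chains of the common type IV network. Col4a1 had 2457, 2541 and 2514 CPM in the tumour libraries and 1519, 1535 and 3681 CPM in sham 1, 2 and 3. Col4a2 had 1156, 1222 and 1191 CPM against 849, 826 and 1733 CPM. Both were higher than in sham 1 and 2, by 0.71 and 0.51 on the log2 scale, and lower than in sham 3, by values of -0.56 and -0.54. The 2 genes lie head to head on chromosome 8, and their annotated transcripts overlap by 22 bases. Their TPM ratio, Col4a1 to Col4a2, was 2.20 to 2.26 in the tumour libraries and 1.91, 1.98 and 2.24 in the sham libraries.

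The vascular collagens of types XV and XVIII, whose C-terminal fragments are known as inhibitors of vessel growth had sham 3 values far above those of sham 1 and 2. Col15a1 had 21.9, 21.3 and 19.6 CPM in the tumour libraries and 2.07, 1.45 and 24.6 CPM in the sham libraries, a difference of 3.25 on the log2 scale against sham 1 and 2 and of -0.23 against sham 3. Col18a1 had 614, 635 and 639 CPM against 308, 312 and 1148 CPM. The Col18a1 transcript that starts at the outer promoter, Col18a1-202, made up 84.7%, 86.7% and 87.2% of the gene's TPM in the tumour libraries and 89.1%, 83.2% and 94.4% in the sham libraries, so it was the main form in all 6. The remaining type IV chains differed less between libraries or were scarce. The X-linked genes Col4a5 and Col4a6 had 157 to 163 and 76.1 to 83.1 CPM in the tumour libraries, and sham ranges of 169 to 181 and 73.6 to 85.9 CPM. Col4a5 was the only basement membrane gene whose tumour values all lay below the sham values. Col4a3 and Col4a4, the chains of the kidney and lung network, had 5.09, 4.97 and 4.90 CPM and 5.42, 5.47 and 5.81 CPM in the tumour libraries. In sham 1, 2 and 3 they had 10.5, 9.44 and 2.5 CPM and 8.27, 10.9 and 3.72 CPM, the reverse order to Col4a1 and Col4a2: sham 3 was lowest.

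**Figure D3:**
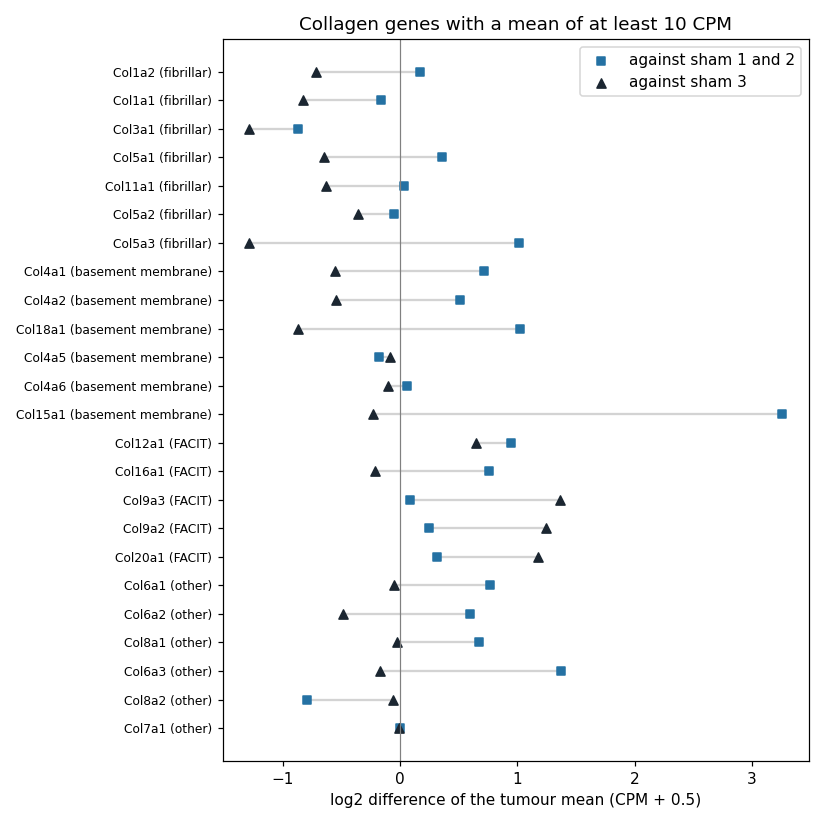
For the 24 collagen genes with a mean of at least 10 CPM, the log2 difference of the tumour mean (0.5 CPM added) from sham 1 and 2 (squares) and from sham 3 (triangles). A line joins the 2 values of a gene. In 15 of the 24 they have opposite signs, as for Col18a1 at 1.02 and -0.87, while both values of Col3a1 lie left of 0 and both of Col12a1 right of 0.

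Among the FACIT genes, Col12a1 rose. Type XII collagen binds type I fibrils and is known from tissues under tension and from fibrotic stroma. Its gene had 1843, 1930 and 1924 CPM in the tumour libraries and 990, 986 and 1210 CPM in sham 1, 2 and 3, with no overlap. The means were 1899 ± 48.5 and 1062 ± 128 CPM (SD, n = 3 each), a 1.79-fold rise (log2 fold change 0.84, SE 0.13, edgeR adjusted p = 0.00772). The rise was seen against sham 1 and 2 (0.94 on the log2 scale) and against sham 3 (0.65). Without tumour 2 or without tumour 3 the size was kept at 0.83 but the adjusted p was 0.0512 and 0.0504. The full-length transcript Col12a1-201 held 61.0% to 62.4% of the gene's TPM in the tumour libraries and 60.2%, 52.1% and 61.2% in the sham libraries.

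Col22a1, known from myotendinous junctions, fell 2.02-fold, from 7.08, 5.86 and 4.72 CPM in the sham libraries to 2.44, 2.88 and 3.40 CPM (log2 fold change -1.02, SE 0.22, adjusted p = 0.0236). Col16a1, the second most abundant FACIT gene, had 214, 229 and 228 CPM in the tumour libraries and 137, 128 and 259 CPM in the sham libraries. Col20a1 and Col9a2 lay above all sham values in the tumour libraries without passing the test. Their tumour ranges were 12.4 to 13.6 and 14.7 to 15.7 CPM, and their lowest sham values, 5.44 and 6.17 CPM, were both those of sham 3. The chains of type IX collagen, Col9a1 and Col9a3, had 1.11 to 1.37 and 19.5 to 23.0 CPM in the tumour libraries and sham ranges of 1.66 to 2.40 and 8.03 to 21.8 CPM. Col14a1, the only tested collagen that averaged under 1 CPM without passing, is named after its values were seen and had 127 reads in all.

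Of the other collagens, Col23a1, a transmembrane collagen, was the only one to pass. It fell 1.62-fold, with 6.96, 7.36 and 6.32 CPM in the tumour libraries and 11.3, 11.5 and 10.6 CPM in the 3 sham ones (log2 fold change -0.70, SE 0.12, adjusted p = 0.0102). The 3 sham libraries were close together for this gene. Leaving out tumour 1 or tumour 3 moved its adjusted p to 0.0564 and 0.0576. Type VI collagen assembles into beaded microfibrils around cells. Its chains Col6a1, Col6a2 and Col6a3 were abundant, and their tumour values lay between sham 1 and 2 and sham 3. Col6a1 had 2277, 2301 and 2293 CPM in the tumour libraries and 1336, 1353 and 2371 CPM in sham 1, 2 and 3. Col6a2 had 1056, 1068 and 1065 CPM against 689, 716 and 1492 CPM, and Col6a3 had 135, 140 and 138 CPM against 54.8, 50.9 and 155 CPM. The TPM ratio of Col6a1 to Col6a2 was 2.29 to 2.30 in the tumour libraries, above the 2.06, 2.00 and 1.70 of the sham libraries.

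Type VIII collagen, a short-chain network collagen of vessel walls and Descemet's membrane, gave 2 chains with unlike orders. Col8a1 had 341, 336 and 336 CPM in the tumour libraries and 215, 209 and 345 CPM in the sham libraries. Col8a2 had 56.7, 68.7 and 64.7 CPM against 108, 112 and 66.1 CPM, and DESeq2 and the edgeR fit without sham 3 called it lower, while edgeR over all libraries did not (adjusted p = 0.0871). The tumour values of both were near those of sham 3 and away from those of sham 1 and 2, and their TPM ratio was 4.77 to 5.82 in the tumour libraries and 1.94, 1.81 and 4.89 in the sham libraries. Col7a1, the anchoring fibril collagen of skin, had 18.5 to 20.4 CPM in the tumour and 18.8 to 20.4 CPM in the sham libraries. The scarce members Col25a1, Col26a1 and Col6a5 had 1.97 to 6.23 CPM over all libraries and did not pass.

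**Figure D4:**
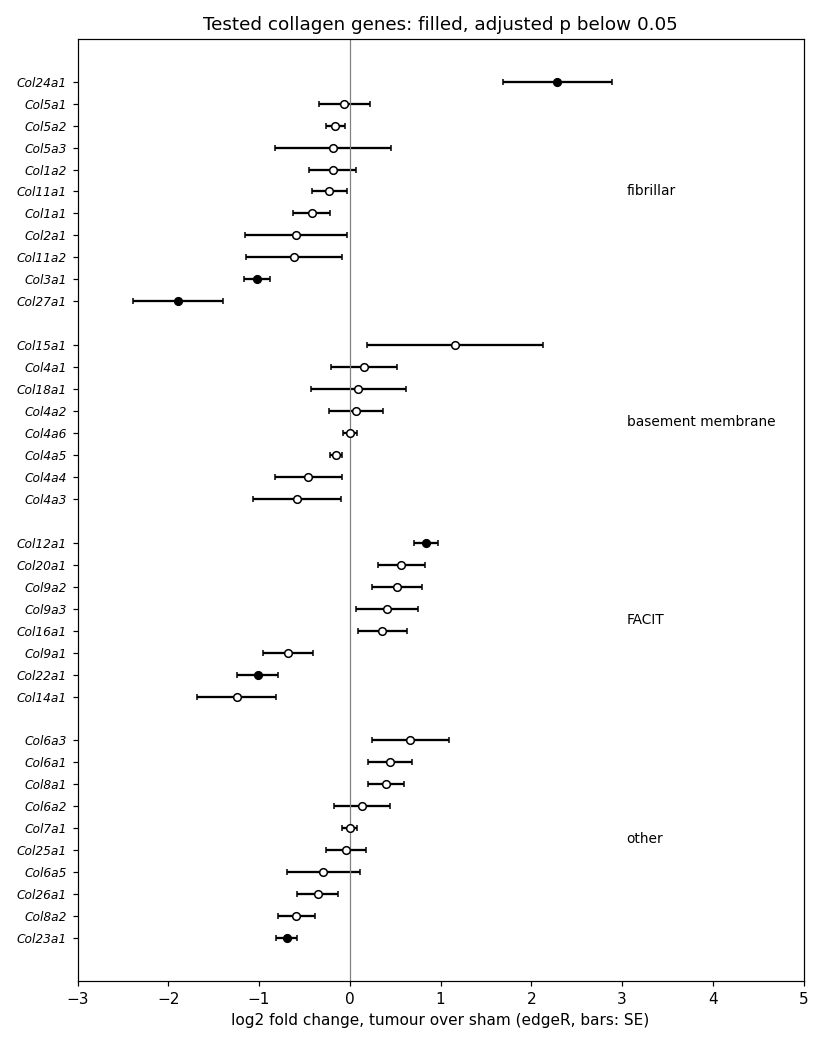
Log2 fold change, tumour over sham, with its SE from edgeR for the 37 tested collagen genes, by class. Filled points passed an adjusted p of 0.05. They are Col24a1 and Col12a1 to the right, and Col3a1, Col27a1, Col22a1 and Col23a1 to the left.

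Many of the long bars in the plot of fold changes belong to genes in which sham 3 differed from sham 1 and 2. Sham 3 was above all 5 other libraries in 19 of the 37 tested collagens, and in 27.3% of all tested genes. Among the 16 collagens with a mean of at least 100 CPM, a limit chosen after the values were seen, it was highest in 14, against 38.6% of all genes at that level. The tumour values all lay between sham 1 and 2 and sham 3 in 18 of the 37 collagens, against 18.3% of all genes. They did not overlap the sham values in 12 of the 37, 4 above and 8 below, which is 32.4% against 44.1% of all genes. Without sham 3, 17 collagens were called higher and 12 lower, 78.4% of the 37, while 57.7% of all genes passed. In that comparison of 3 tumour with 2 sham libraries, 4 of the basement membrane genes were higher and 3 lower. Which sham library is the better control was not tested.

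Of the 6 calls, that of Col3a1 remained under every alternative except the one that summed the close libraries, which left 1 tumour and 2 sham values. Those of Col22a1, Col24a1 and Col27a1 were lost when any single library other than sham 3 was left out, with adjusted p of 0.0651 to 0.1, 0.0553 to 0.146 and 0.0993 to 0.148. With all 6 libraries kept, these 3 calls were also lost with transcript length offsets and with a block for replicate number. Those of Col24a1 and Col27a1 were lost with limma-voom too (adjusted p of 0.0571 and 0.0838). Some collagen exons overlap those of other genes, Col3a1 with Gm47302 over 141 bases on the same strand and Col22a1 with Gm16308 over 16 bases on the other strand, and no source used here says whether strand was used in counting.

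Promoter windows are shown for the called genes that have an entry in RefSeq's table (build GRCm38.p6), which covered 35 of the 44 members. Each is the 250 bases before the annotated start, on the plus strand and free of exons. For Col27a1, GENCODE also lists a transcript that starts before the window. Capitals mark a TATA box (TATAAA) or a GC box (GGGCGG), on either strand.
Col3a1 (chr1:45311288-45311537): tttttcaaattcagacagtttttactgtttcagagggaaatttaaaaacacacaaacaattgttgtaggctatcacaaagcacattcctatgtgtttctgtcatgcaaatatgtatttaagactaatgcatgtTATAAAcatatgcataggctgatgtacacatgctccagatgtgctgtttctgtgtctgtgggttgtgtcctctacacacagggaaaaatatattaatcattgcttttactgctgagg
Col27a1 (chr4:63215162-63215411): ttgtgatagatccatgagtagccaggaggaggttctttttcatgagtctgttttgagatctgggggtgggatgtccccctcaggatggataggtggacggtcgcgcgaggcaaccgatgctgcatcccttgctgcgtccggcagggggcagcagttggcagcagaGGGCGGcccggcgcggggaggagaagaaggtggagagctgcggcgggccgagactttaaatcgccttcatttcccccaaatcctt
Col23a1 (chr11:51289670-51289919): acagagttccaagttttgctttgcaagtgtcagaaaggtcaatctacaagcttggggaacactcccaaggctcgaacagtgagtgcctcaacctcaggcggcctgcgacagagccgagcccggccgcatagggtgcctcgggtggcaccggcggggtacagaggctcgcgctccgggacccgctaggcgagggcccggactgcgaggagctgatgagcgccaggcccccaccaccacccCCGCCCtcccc
Col24a1 (chr3:145292222-145292471): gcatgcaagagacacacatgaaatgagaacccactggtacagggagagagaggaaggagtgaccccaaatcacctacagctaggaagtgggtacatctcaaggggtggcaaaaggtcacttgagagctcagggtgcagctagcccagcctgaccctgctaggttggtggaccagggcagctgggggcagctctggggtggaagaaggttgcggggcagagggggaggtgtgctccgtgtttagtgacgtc

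No motif of those searched was in all 3 windows of genes that fell. Col3a1 had 1 TATA box and no GC box, Col27a1 and Col23a1 had 1 GC box each, and Col24a1 had neither. Searched on both strands, GGGCGG was in 57.9% of the 38 collagen windows and in 32.7% of the 32851 windows of the whole table, TATAAA in 13.2% and 12.4%, and CCAAT in 34.2% and 33.8%. The hypoxia response cores ACGTG and GCGTG, at least one of which was in 28.9% of collagen windows and 38.6% of all windows, were in none of the 4 shown. The GC, TATA and CCAAT motifs were chosen after the expression values were seen.

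The genes that act on collagen were read from 5 lists. Of 18 genes of collagen modification and folding in the endoplasmic reticulum, all tested, edgeR called 5 higher and 0 lower. These calls are 27.8% of the list, against 20.9% of all genes. The median log2 fold change of the list was 0.25. Split by sham library, the median log2 difference was 0.36 against sham 1 and 2 and -0.02 against sham 3. At an unadjusted p under 0.05, 7 were higher and 0 lower, or 38.9%, near the 36.3% of all genes. P4ha1, a prolyl 4-hydroxylase subunit whose product stabilises the triple helix, had 758, 734 and 732 CPM in the tumour libraries and 160, 165 and 216 CPM in the sham libraries. It rose 4.11-fold (log2 fold change 2.04, SE 0.14, edgeR adjusted p = 0.000587). Plod1, a lysyl hydroxylase, rose by 0.74, the second prolyl 4-hydroxylase subunit P4ha2 by 0.91, and the prolyl 3-hydroxylase family member P3h3 by 0.26. The collagen chaperone Serpinh1 had 470, 494 and 495 CPM against 423, 429 and 615 CPM.

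Of the 13 tested genes of procollagen cleavage and cross-linking, 3 rose and 2 fell, 38.5% against 20.9% of all genes. At an unadjusted p under 0.05 the counts were the same, near the 36.3% of all genes. The cross-linking oxidase Lox had 2543, 2497 and 2493 CPM in the tumour libraries and 1188, 1200 and 1309 CPM in the sham libraries, and rose 2.04-fold (log2 fold change 1.03, SE 0.11, adjusted p = 0.00274). Its relatives Loxl2 and Loxl3 rose by 1.24 and 0.89. The procollagen C-proteinases moved the other way: Bmp1 had 118, 120 and 115 CPM against 164, 165 and 181 CPM (log2 fold change -0.53, adjusted p = 0.00399), and its relative Tll1 also passed as lower.

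Of the 9 tested collagen receptors, edgeR called 2 higher and 0 lower. That is 22.2%, near the 20.9% of all genes. The counts at an unadjusted p under 0.05 were the same, below the 36.3% of all genes. Itga11, the integrin subunit that binds fibrillar collagen, had 52.1, 47.4 and 52.0 CPM in the tumour libraries and 9.68, 7.11 and 14.4 CPM in the sham libraries, a 4.86-fold rise (log2 fold change 2.28, SE 0.24, adjusted p = 0.00255). Mrc2, an endocytic collagen receptor, rose by 0.36. The tyrosine kinase receptors Ddr1 and Ddr2 did not pass, with log2 fold changes of -0.02 and -0.04.

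Of the 14 partners of collagen in basement membranes, 5 rose and 1 fell, 42.9% against 20.9% of all genes. At an unadjusted p under 0.05, 6 were higher and 1 lower, or 50% against 36.3% of all genes. Their median log2 fold change was 0.56, and the median log2 difference was 0.62 against sham 1 and 2 and 0.25 against sham 3. The laminin chain Lama5 had 137, 135 and 133 CPM in the tumour libraries and 70.3, 73.7 and 60.4 CPM in the sham libraries, and rose 1.98-fold (log2 fold change 0.99, SE 0.08, adjusted p = 0.00126). Lama4 and Lama2 rose by 1.09 and 0.68, Nid1, which links laminin to type IV collagen, rose by 1.18, and Agrn, the gene of agrin, passed as lower (-0.28). Of 12 proteins that bind fibrils, 1 fell, the small leucine-rich proteoglycan gene Aspn (log2 fold change -0.57) and 0 were called higher by edgeR. The 1 call is 8.33% of the list. At an unadjusted p under 0.05, 1 was higher and 2 lower, or 25%. The differences between these lists and the collagen genes were not tested.

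The calls of P4ha1, Plod1, Lox, Loxl2, Bmp1, Itga11, Lama5 and Lama4 held with any 1 library left out. Those of P4ha2, P3h3, Loxl3, Tll1, Mrc2, Lama2, Nid1, Agrn and Aspn were lost without tumour 1, at adjusted p of 0.0522 to 0.147, and without tumour 2, at 0.055 to 0.166. Tll1, Agrn, Serpinh1, Ddr1 and Ddr2 were named after their values were seen.

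**Figure D5:**
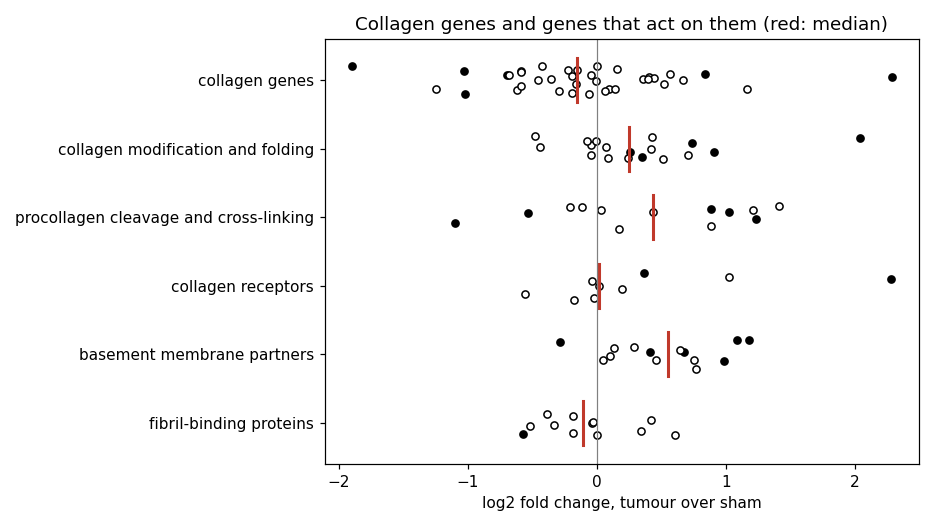
Log2 fold change, tumour over sham, of each tested collagen gene and of each tested gene in 5 lists of genes that act on collagen. Filled points passed an adjusted p of 0.05 and red bars are medians, from -0.15 for the collagen genes to 0.56 for the basement membrane partners.

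Markers of other collagen-making cells were present in these libraries. All 10 astrocyte markers reached 1 CPM in at least 1 library. They summed to 5488 to 5590 CPM in the tumour libraries and to 7260, 7273 and 4341 CPM in sham 1, 2 and 3. This was the reverse order to that of 10 of the 16 collagens with a mean of at least 100 CPM. The others at that level, Col1a1, Col3a1, Col4a5, Col5a2, Col11a1 and Col12a1, had different orders. The 10 fibroblast and leptomeningeal markers that are not collagens all reached 1 CPM in at least 1 library and summed to 1446 to 1484 CPM in the tumour libraries and 1373, 1352 and 1395 CPM in the sham libraries. Of these 10, 1 rose and 3 fell, where 20.9% of all tested genes passed in either direction. In the other marker lists, edgeR called 1 astrocyte, 1 microglial and 1 neuronal marker higher, and 1 astrocyte and 1 endothelial marker lower. It called 0 in the mural, oligodendrocyte lineage and SCLC lists. The 11 mural markers summed to 553 to 563 CPM against 333, 337 and 652 CPM, the same order as Col4a1 and Col18a1, although the defining pericyte markers Rgs5, Kcnj8 and Abcc9 stayed below 1 CPM in every library. Endothelial markers summed to 650 to 661 CPM against 626, 635 and 575 CPM, most of it Cdh5, with Cldn5 and Erg at 0 reads. Among microglial markers 7 of 10 stayed below 1 CPM, as did 3 of 9 of the oligodendrocyte lineage, 4 of 9 of neurons and 4 of 10 of SCLC and epithelium. Even so, the oligodendrocyte lineage list summed to 910 to 943 CPM in the tumour libraries and 1009, 1033 and 671 CPM in sham 1, 2 and 3. The microglial sums were 210 to 219 against 170, 176 and 192 CPM, and the neuronal ones 105 to 115 against 88.1, 86.2 and 150 CPM. For SCLC and epithelium they were 26.6 to 28.9 against 42.2, 40.7 and 28.7 CPM. The part of other cell types in the collagen levels was not tested, and in bulk libraries fewer cells of a type and less RNA per cell cannot be told apart.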

How the data were processed

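Estimated counts (the number of reads per transcript) and TPM were deposited by the authors for each of 6 libraries, per the file headers. The submitters' processing notes name Salmon 0.8.2, DESeq2 1.28.1 and the mm10 build. Salmon divides reads shared by transcripts among them, so transcript shares are less certain than gene levels. No source used here gives the library kit or strand setting. The 112841 of 113116 transcripts that matched GENCODE M21 (99.947% to 99.958% of reads) were added up by gene and then rounded; coordinates are GENCODE M21's.

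The test was edgeR 4.0.16 in R 4.3.3: TMM scaling, filterByExpr (minimum count 10, minimum total 15), a robust quasi-likelihood fit of the 6 libraries on group alone, and Benjamini-Hochberg adjustment over all tested genes. Each SE was obtained from the F statistic, as the size of the log2 fold change over the root of F. CPM use TMM library sizes, and log2 differences by sham library use CPM with 0.5 added. Named were all called collagens, those with a mean of at least 1 CPM, and up to 4 called genes per list with the smallest p. The members and lists were chosen with earlier results of these data known. There were 14 alternatives: DESeq2 1.42.0, limma-voom (limma 3.58.1), 2 other scalings, no filter, transcript length offsets, a replicate block, each library left out, and close libraries summed. Protein sequences were not analysed here.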

Additional observations from a re-analysis of the deposited data

How the results depend on the processing

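Leaving out 1 library gave 536 to 4250 genes higher and 355 to 4179 lower, and 0 to 17 collagens higher and 1 to 12 lower; the upper ends came without sham 3. Without tumour 2 or tumour 3, where 0 collagens were higher, 2 were at an unadjusted p under 0.05. With close libraries summed, edgeR called 0 genes and 0 collagens in both directions, against 573 genes and 0 collagens at an unadjusted p under 0.05; that fit has fewer samples. Transcript length offsets gave 969 genes lower, 1 collagen higher and 2 lower, a median of 0.26 for the other collagens, and 0.39 for Col7a1, -0.023 for Col4a6 and 0.45 for Col6a5. With limma-voom 1 collagen was higher, the FACIT median was 0.47, Col5a3 was at 0.28 and Col5a1 at 0.0155. Deviations from the group mean in libraries of the same replicate number had correlations of 0.0079, -0.0194 and -0.0008. Sham 3 sets most of the sham deviations, so these values cannot show whether the numbers pair the libraries. With the replicate block 829 genes were higher and 607 lower, with 1 collagen higher and 2 lower. The FACIT median was then 0.47, with Col5a3 at 0.28 and Col5a1 at 0.023. Scaling by upper quartile and no filter put Col4a6 at -0.014 and -0.0024. Summed libraries put Col18a1 at -0.21, Col6a2 at -0.049, Col4a6 at -0.024, Col4a1 at -0.060, Col4a2 at -0.11 and Col25a1 at 0.046. The cause was not tested.

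With 1 library left out, median log2 fold changes ran from -0.20 to 0.061 for all collagen genes, 0.17 to 0.43 for FACIT, -0.11 to 4.8e-05 for the others. The medians of the fibrillar and of the basement membrane genes changed sign as well, and were positive without sham 3. By sham library, their median log2 differences were 0.035 and 0.28 against sham 1 and 2. Against sham 3 they were -0.65 and -0.17. The sign of a log2 fold change turned for some members, with ranges of -0.22 to 1.02 for Col18a1, -0.56 to 1.04 for Col5a3, -0.061 to 0.60 for Col6a2, -0.94 to 0.40 for Col2a1, -0.038 to 0.040 for Col7a1, -0.25 to 0.35 for Col5a1, -0.36 to 0.034 for Col11a1, -0.35 to 0.17 for Col1a2, -0.054 to 0.061 for Col4a6, -0.066 to 0.71 for Col4a1, -0.12 to 0.50 for Col4a2, -0.22 to 0.15 for Col25a1, -0.64 to 0.022 for Col6a5. The TPM ratios depend on the length used: with CPM per mean effective length, Col6a1 to Col6a2 was 4.02 to 4.04 in the tumour libraries and 3.81, 3.71 and 2.97 in the sham libraries, and Col1a2 to Col1a1 was 2.13 to 2.22 and 1.71, 1.76 and 2.06. Genes under 5 CPM rest on few reads.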
